A study of Mus musculus with 8 samples.

Results

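Kallikreins are secreted serine proteases, and a subset of them, with the membrane-bound protease matriptase and the inhibitor LEKTI, controls how the outermost cells of the epidermis are shed. The genes described here are the 10 named as this group, namely Klk5, Klk6, Klk7, Klk8, Klk10, Klk11, Klk13, Klk14, Spink5 (LEKTI) and St14 (matriptase), and their probes were found by gene symbol in the platform annotation. Of the 10 genes, 9 had probes, 13 in all of the 25697 on the array, and Spink5 was not analysed here. A probe was tested when its signal stood above the negative control beads (detection p below 0.05) on at least 4 arrays. That left 11 probes of 8 member genes among 15120 probes of 10350 genes.

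Whole back skin was taken from mice 10 weeks of age on the C57BL6 background, 4 Med1 knockout (KO) and 4 control (CON) mice, with total RNA of each mouse on an Illumina bead array of its own. All 8 mice carried floxed MED1 alleles (MED1 fl/fl), and the KO mice also carried Cre recombinase driven by the K14 promoter, which is active in keratinocytes of the epidermis and its appendages and not in dermis, muscle or vessels. CON mice were Cre-negative littermates per the study's methods, so Cre itself differed between the groups together with the deletion. The comparison asks how gene expression of back skin differs between mice with and without deletion of the coactivator Med1 in keratinocytes. Hair cycle stage was not accounted for in it.

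In the stratum corneum, kallikreins cut the proteins of corneodesmosomes, the junctions that hold dead cornified cells together. They are made as inactive zymogens and activate each other. KLK5 can activate itself, KLK7 and KLK14, and matriptase can activate kallikreins and the protease prostasin. LEKTI holds KLK5, KLK7 and KLK14 in check, and its loss causes Netherton syndrome, with excessive shedding. In mice, matriptase is also needed for profilaggrin processing and for hair follicle growth.

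The arrays detected between 14593 and 15149 probes each. Across probes, Pearson r was 0.991 to 0.993 for pairs of mice sharing a genotype and 0.908 to 0.916 for CON paired with KO mice. Med1 itself lay at 8.92 to 9.10 in CON and 7.80 to 8.45 in KO mice on the log2 scale at its brightest probe, and fell by 0.79 ± 0.14 (SE, n = 4 per group, limma adjusted p = 0.000649). At dimmer tested probes the groups overlapped. One of these fell by 0.69 ± 0.18 (limma adjusted p = 0.00861), and another changed by -0.23 ± 0.17 and was not called (adjusted p = 0.252). Where the probes lie relative to the deleted exons was not analysed here. Krt10 and Lor, products of differentiated epidermis, were detected on all 8 arrays.

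The kallikrein genes stand side by side on chromosome 7 in the order Klk14, Klk13, Klk12, Klk11, Klk10, Klk9, Klk8, Klk7, Klk6, Klk5, with Klk4, Klk15 and the Klk1 subfamily beyond Klk5. Neighbours in this row changed in opposite directions (Klk6 against Klk5, and Klk10 against Klk11), so the sequence just before the start site of these 4 genes is shown, from 160 bases before the start site to the base next to it, on the plus strand of GRCm38.p6 as given by RefSeq. The windows lie at chr7:43824384-43824543 for Klk6, chr7:43780894-43781053 for Klk10, chr7:43842109-43842268 for Klk5 and chr7:43774457-43774616 for Klk11, at the first annotated start where a gene has several. Capitals mark CCACCC, the box that Krüppel-like factors recognise, and GGGCGG, the GC box of SP1, on either strand.
Klk6: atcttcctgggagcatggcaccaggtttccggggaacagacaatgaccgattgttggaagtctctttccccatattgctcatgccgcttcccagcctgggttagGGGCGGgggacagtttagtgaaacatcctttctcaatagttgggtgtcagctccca
Klk10: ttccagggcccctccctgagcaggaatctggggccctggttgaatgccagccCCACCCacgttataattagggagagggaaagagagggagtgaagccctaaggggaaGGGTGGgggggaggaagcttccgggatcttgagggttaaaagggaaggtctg
Klk5: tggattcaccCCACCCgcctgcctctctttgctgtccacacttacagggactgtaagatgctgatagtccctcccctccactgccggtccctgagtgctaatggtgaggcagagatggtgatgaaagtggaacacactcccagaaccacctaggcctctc
Klk11: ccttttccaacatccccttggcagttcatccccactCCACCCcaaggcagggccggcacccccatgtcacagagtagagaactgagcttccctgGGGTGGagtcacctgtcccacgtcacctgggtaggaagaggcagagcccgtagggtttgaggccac
Promoter windows of 300 bases (250 before and 50 after the start) were used for 8 of the 10 members, 10 windows in all. Spink5 was left out of these windows and was not analysed. CCACCC stood on either strand in 6 of these 10 windows and in 31.5% of all 32851 windows of the table, and GGGCGG in 4 of 10 against 35.7%. In Klk7 both motifs share bases. TATAAA, the TATA box, was in 0 of 10 windows against 13.6% of all, and TGANTCA, the AP-1 site, in 0 of 10 against 7.81%. TTAAAA, a variant looked for after the sequences had been seen, was in 4 of 10 against 19.2%, at position -17 of Klk10, -26 of Klk8, -233 of Klk11 and -68 of the second start of Klk6. CCACCC stood before Klk10, which rose, and before Klk5 and Klk11, which fell.

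Most of the protease genes were higher in KO skin, and the largest changes were those of Klk6, Klk10 and St14. Of the 8 tested member genes, 6 rose and 2 fell at an adjusted p below 0.05 (limma, Benjamini-Hochberg over all tested probes), beside 29.4% of all tested genes that rose and 34.4% that fell. A rise of at least 2-fold was called for 4 of the 8, beside 7.40% of all genes. Klk13, counted as a rise throughout this paragraph, was tested only because KO arrays detected it, so the filter favoured a rise. Without background correction its log2 change was 0.42, below 2-fold. The members were chosen with earlier results of these data known, so the counts describe the list and are not a test of it. The median log2 change of the 8 genes was 1.01, or 0.89 with Klk13 at its lower bound, against -0.04 over all tested genes. The latter is largely set by the normalization of all arrays to equal quantiles. Without background correction the members' median was 0.550. Of all tested genes 63.8% passed in either direction, so a called change was in itself common on these arrays. At the level of probes, 8 of the members' 11 rose and 3 fell, beside 30.7% and 32.0% of all tested probes. CON and KO values did not overlap in any of the 8 genes, with KO above in 6 and below in 2, beside 28.0% (above) and 32.2% (below) of all genes.

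**Figure D1:**
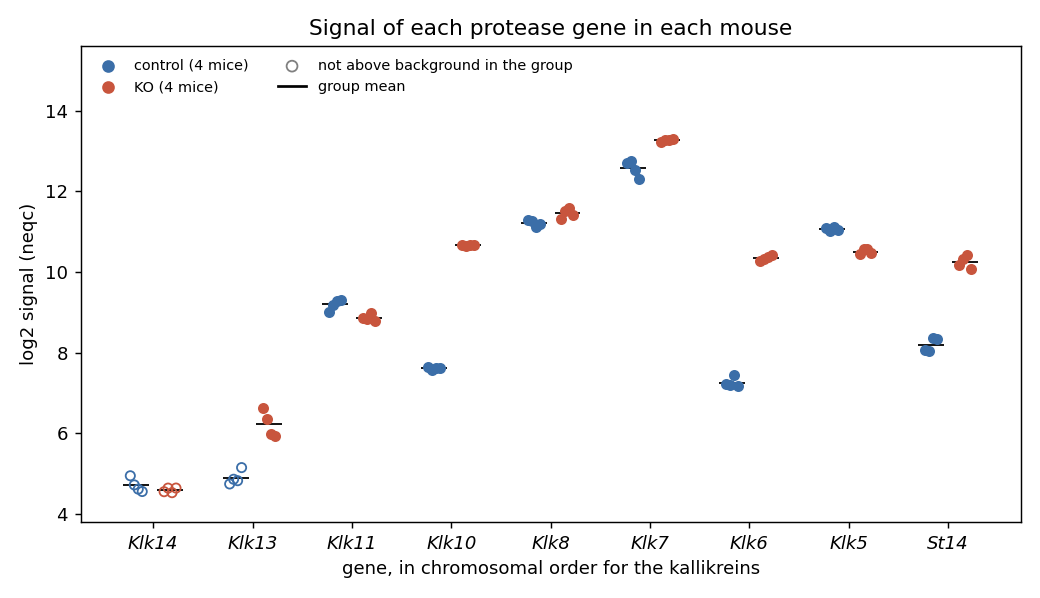
Log2 signal of the brightest probe of each member gene in each of 4 CON (blue) and 4 KO (red) mice, with group means as black bars and open symbols where a gene was not above background on any array of the group. Klk10, Klk6 and St14 stand furthest apart between the groups, while Klk14 lies at background in both; heights of different genes are not comparable, since each has its own probe.

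Klk6 encodes neurosin, a trypsin-like kallikrein found in the central nervous system and in skin. Its log2 signal was 7.22, 7.20, 7.45 and 7.17 in CON mice 1 to 4 and 10.26, 10.32, 10.38 and 10.42 in KO mice 1 to 4. All KO mice lay well above all CON mice, and within each genotype the mice differed little. The change was 3.09 ± 0.08 (log2, SE, n = 4 per group, 95% interval 2.90 to 3.27, adjusted p = 3.67e-09), or 8.51-fold, which placed Klk6 103rd among 10350 genes ordered by increase. Without background correction the change was 2.39. Of the nervous system markers looked at beside it, Mbp, a myelin protein gene, fell by 1.75 and S100b was not above background on any array.

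Klk10, first described as a gene that normal epithelial cells express and breast cancer cells lose, had the tightest replicates of the group. Its signal was 7.65, 7.57, 7.62 and 7.63 in CON and 10.67, 10.65, 10.67 and 10.67 in KO mice. The spread was 0.03 in CON and 0.01 in KO mice (SD, n = 4), against a difference of 3.05 ± 0.06 (interval 2.91 to 3.18, adjusted p = 5.24e-10, 8.27-fold). Klk10 came 107th in the order of increase, next to Klk6 in size though 3 genes separate them on the chromosome.

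St14 encodes matriptase, the transmembrane protease upstream of kallikreins and prostasin. At its brighter probe it lay at 8.07, 8.03, 8.35 and 8.34 in CON and at 10.18, 10.32, 10.41 and 10.08 in KO mice, a rise of 2.05 ± 0.11 (4.15-fold, adjusted p = 2.29e-07). The second probe had 6.99, 7.18, 6.96 and 6.65 in CON and 8.87, 9.02, 8.92 and 9.13 in KO mice. Both probes of St14 separated the groups completely and gave nearly the same change, 2.04 ± 0.12 at the second (adjusted p = 3.89e-07).

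Klk13, a kallikrein of stratified epithelia, was seen in KO skin only. At its brightest probe the signal was 4.75, 4.86, 4.83 and 5.15 in CON mice, not above background on any array, and 6.64, 6.37, 5.98 and 5.94 in KO mice, detected on all 4. The gene was therefore at least 2.14-fold higher in KO skin, where the bound sets the KO mean against the lowest signal that counted as detected on each CON array, or the probe's own if higher (limma adjusted p = 6.88e-05). The bound rests on the background correction, without which the log2 change was 0.42. A second probe went the same way (4.90, 4.5, 4.93 and 4.81 in CON, 6.25, 6.34, 6.29 and 6.03 in KO, at least 2.13-fold, adjusted p = 3.47e-06). The last of its 3 probes was detected on 1 KO array and on no CON array and was not tested. Leaving out any 1 KO mouse left Klk13 untested, since fewer than 4 arrays then detected it.

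Klk7 and Klk8 rose by less. Klk7 encodes the chymotrypsin-like enzyme of the stratum corneum that cuts corneodesmosin, and its signal was 12.69, 12.76, 12.54 and 12.32 in CON and 13.22, 13.28, 13.27 and 13.28 in KO mice. The rise of 0.69 ± 0.10 (1.61-fold, interval 0.47 to 0.91, adjusted p = 0.000201) exceeded the spread between mice, which was 0.20 in CON and 0.03 in KO (SD, n = 4).

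Klk8 encodes neuropsin, a trypsin-like kallikrein of epidermis and hippocampus. It lay at 11.30, 11.26, 11.11 and 11.18 in CON and at 11.32, 11.52, 11.59 and 11.41 in KO mice. The groups nearly touched, the lowest KO mouse standing just above the highest CON mouse. The change of 0.25 ± 0.08 (1.19-fold, adjusted p = 0.0250) passed the test narrowly, and the call was lost without CON mouse 3 (adjusted p = 0.0665), CON mouse 4 (0.0564), KO mouse 2 (0.0615) or KO mouse 3 (0.0660).

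Klk5 and Klk11 fell. Klk5 encodes the trypsin-like enzyme that starts the activation of other kallikreins in the stratum corneum. Its signal was 11.09, 11.02, 11.12 and 11.04 in CON and 10.44, 10.56, 10.56 and 10.47 in KO mice, so that every KO mouse was below every CON mouse. It fell by 0.56 ± 0.07 (interval -0.71 to -0.41, adjusted p = 5.25e-05), to 67.8% of the CON level. In the same mice Klk7 and St14 rose, and the 95% intervals of these changes do not meet that of Klk5.

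Klk11, a trypsin-like kallikrein also known as hippostasin, fell at both probes. The brighter probe had 9.0, 9.19, 9.29 and 9.32 in CON and 8.85, 8.84, 8.98 and 8.77 in KO mice, and fell by 0.34 ± 0.09 (adjusted p = 0.00782), to 79.0% of the CON level. The other had 9.26, 9.23, 8.99 and 9.37 in CON and 8.58, 8.63, 8.77 and 8.55 in KO mice, and fell by 0.58 ± 0.09 (adjusted p = 0.000490), to 67.0%. The probes agree in direction, with CON mouse 1 lowest of its group at the brighter probe and CON mouse 3 at the other, and KO mice were below CON mice at both. At the brighter probe the groups nearly touched, with CON mouse 1 at 9.0 and KO mouse 3 at 8.98.

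Klk14 encodes a strong trypsin-like kallikrein of the stratum corneum. Its probe gave 4.95, 4.72, 4.62 and 4.56 in CON and 4.56, 4.65, 4.53 and 4.65 in KO mice and was not above background on any of the 8 arrays. No change could be measured for it, and this does not show that the gene is silent.

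**Figure D2:**
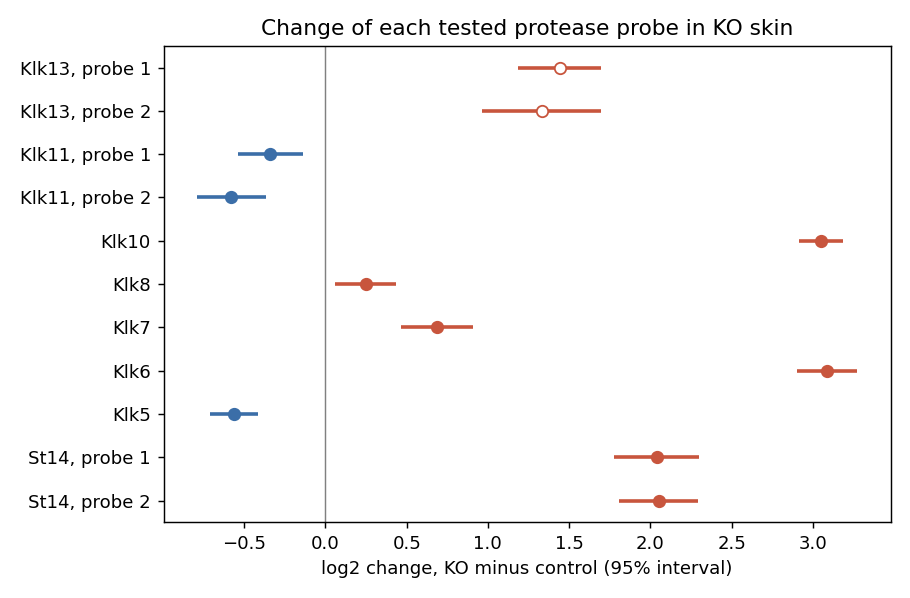
Log2 change (KO minus CON) of the 11 tested probes with 95% intervals from the limma fit, n = 4 mice per group, kallikreins in chromosomal order and St14 last; red probes rose and blue probes fell, and open circles were not above background on any CON array. Klk10 and Klk6 lie near 3, St14 near 2, and the intervals of Klk5 and Klk11 lie below 0.

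Genes of the hair follicle rose in the same KO mice. For mice of this model and age, the paper describes an abnormal shift of KO skin to anagen, the growth phase of the hair cycle. It describes CON skin as being in telogen, the resting phase. Genotype and hair cycle stage may therefore have differed together here, and the part of each in the changes was not tested. A list of 13 hair shaft and inner root sheath markers, products of growing follicles, had 9 tested genes. All 9 rose (median log2 change 8.35), beside 29.4% of all tested genes, while Krt25 was not above background on any array. Krt35 was not above background on any CON array and was tested only through the KO arrays. Krt31, the gene at the median, was detected on 1 CON array, so this size is approximate. The summed signal of the 10 markers with a probe, on the linear scale after background correction, was between 194818 and 202545 in KO mice. It was 1879 and 1639 in CON mice 1 and 3 and 198 and 193 in CON mice 2 and 4. In the same CON mice 1 and 3, Klk10 lay at 7.65 and 7.62, against 7.57 and 7.63 in CON mice 2 and 4. Klk6 lay at 7.22 and 7.45 against 7.20 and 7.17, St14 at 8.07 and 8.35 against 8.03 and 8.34, and Klk5 at 11.09 and 11.12 against 11.02 and 11.04. With so few mice these differences among CON mice were not tested. Without CON mice 1 and 3 the other 7 member genes kept their direction and their call, and Klk8 lost its call (adjusted p = 0.0915).

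**Figure D3:**
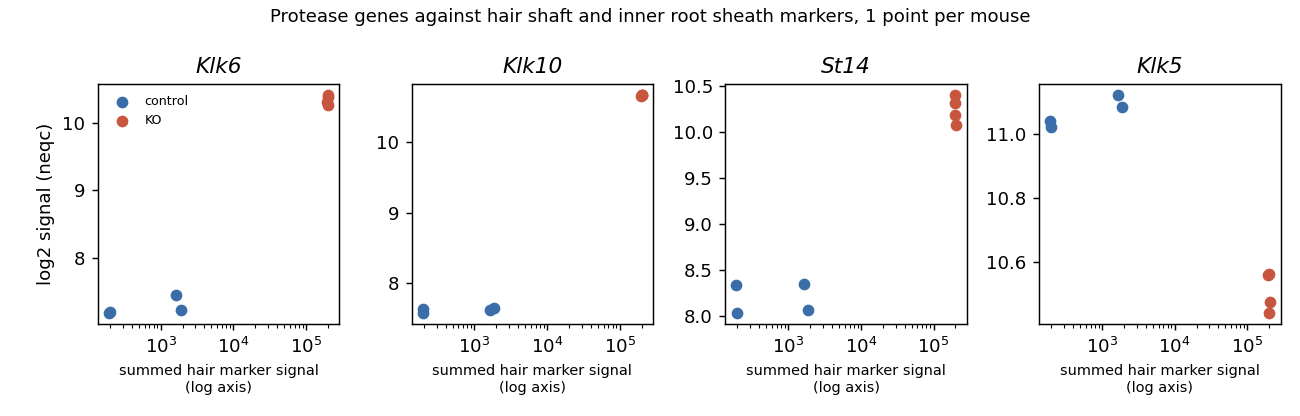
Log2 signal of Klk6, Klk10, St14 and Klk5 in each mouse (1 point per mouse, 4 CON in blue and 4 KO in red) against the summed linear signal of hair shaft and inner root sheath markers, on a log axis. CON mice 1 and 3 carry more hair marker signal (1879 and 1639) than CON mice 2 and 4 (198 and 193), and all 4 lie far below the KO mice (194818 to 202545). Among the CON mice, Klk10 lies between 7.57 and 7.65 and Klk6 between 7.17 and 7.45. Whether the protease genes follow the hair marker signal was not tested.

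Markers of other compartments of the skin changed as well. Beside the counts given here stand 29.4% of all tested genes higher and 34.4% lower. In whole skin, fewer cells of a type, less RNA per cell and dilution by RNA of other cells cannot be told apart. Signals were scaled to equal distributions on all arrays, so they are relative. Outer root sheath and companion layer markers rose in 5 of 5 genes (summed signal 19098 to 20982 in CON and 38617 to 39901 in KO), proliferation markers in 5 of 5 tested (1078 to 1263 against 5431 to 5594) and sebaceous gland markers in 6 of 7 (25611 to 27415 against 34891 to 39011). Melanocyte markers rose in 5 of 5 (657 to 772 against 9936 to 10680). Among them, Tyr was not above background on any CON array and was tested only through the KO arrays. Of 11 suprabasal epidermis markers 3 rose and 5 fell, with a sum of 145394 to 155481 in CON and 116612 to 119218 in KO, and of 6 basal keratinocyte markers 4 fell (71690 to 75899 against 60380 to 65503). Muscle markers fell in 6 of 6 genes (118555 to 126275 against 47591 to 49755), fibroblast markers in 5 of 5 (72587 to 78957 against 47122 to 53984) and endothelial markers in 5 of 5 (6117 to 6746 against 2500 to 2722). The part of these shifts in the changes of the proteases was not tested.

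Most kallikreins outside the group were not above background on enough arrays to be tested. Counts of this and the next lists stand beside 29.4% of all tested genes higher and 34.4% lower. Of 18 other kallikrein genes listed, 15 had a probe and 3 were tested, of which 2 fell and 0 rose (median log2 change -0.61, or -0.47 with Klk1b5 at its bound). Klk1, tissue kallikrein, which releases kinins, fell by 1.18 ± 0.17 (adjusted p = 0.000238, detected on 3 KO arrays), and Klk1b5, not above background on any KO array, was lower by at least 1.38-fold (adjusted p = 0.0123). Klk1b5 was tested only because CON arrays detected it, so the filter favoured a fall. Klk1b27 changed by -0.22 ± 0.17 (adjusted p = 0.295). Genes of the Klk1 subfamily are close copies of each other, so a probe may capture a neighbour and these values are uncertain. Klk9, which lies between Klk10 and Klk8, and Klk4, next to Klk5, were not above background on any array.

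Of 11 other membrane-bound serine proteases listed, all had a probe and 5 were tested, of which 3 rose and 0 fell at their brightest probe (median 0.33). Prss8, the gene of prostasin, which works with matriptase, had 8.38, 8.44, 8.56 and 8.79 in CON and 9.86, 9.99, 10.18 and 9.77 in KO mice at its brighter probe. It rose by 1.41 ± 0.12 (adjusted p = 5.12e-06), with 1.68 at a second probe, beside the 2.05 of St14. Tmprss2, a serine protease of epithelia, was at least 6.28-fold higher in KO skin and not above background on any CON array. It too was tested only through the KO arrays, and its bound rests on the background correction. Tmprss13 rose by 0.33 ± 0.09 (adjusted p = 0.00909), and Tmprss4 changed by -0.14 ± 0.08 at its brightest probe (adjusted p = 0.181) and fell by 0.22 at a dimmer one (adjusted p = 0.0279).

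Inhibitors of these proteases changed in both directions. Of 9 listed, 7 were tested, 4 rose and 1 fell (median 1.51). Spink6, a relative of LEKTI that inhibits kallikreins in human skin, had 4.97, 5.06, 5.06 and 4.91 in CON and 8.87, 8.90, 8.82 and 8.74 in KO mice. It was not above background on any CON array and was at least 13.0-fold higher in KO skin (limma adjusted p = 3.73e-10). Spink6 was tested only because KO arrays detected it, so the filter favoured a rise, and the bound rests on the background correction. Spint1, which encodes HAI-1, the inhibitor of matriptase and prostasin, had 6.12, 6.42, 6.96 and 6.80 in CON and 8.47, 8.54, 8.47 and 8.45 in KO mice and rose by 1.91 ± 0.16 (adjusted p = 6.18e-06). Its target St14 rose by 2.05 in the same mice. Slpi, an inhibitor of leukocyte elastase, rose by 1.63 ± 0.18 (adjusted p = 3.18e-05).

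Serpina12 went the other way. It encodes vaspin, a serpin that inhibits KLK7. Its signal was 11.84, 11.89, 11.88 and 11.84 in CON and 10.09, 10.09, 10.38 and 10.14 in KO mice, a fall by 1.69 ± 0.08 (adjusted p = 1.33e-07), with -2.08 at a second probe. All KO mice lay below all CON mice, while its target Klk7 lay above in all KO mice.

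Of 11 listed genes of the junction proteins that kallikreins cut and of other desmosome proteins, 7 were tested and 7 rose (median 0.50), beside 29.4% of all tested genes. KO lay above CON without overlap in 6 of the 7, beside 28.0% of all genes. Dsg1a, Dsg1c and Dsc2 were not above background on enough arrays to be tested. Cdsn, corneodesmosin, lay at 13.10, 13.14, 13.36 and 13.13 in CON and at 13.55, 13.59, 13.72 and 13.61 in KO mice and rose by 0.43 ± 0.08 (adjusted p = 0.00112), with 0.22 at a second probe. Dsc1, the desmocollin of the upper epidermis, rose by 1.21 ± 0.10 (adjusted p = 4.19e-06). Dsg3 and Dsc3, desmosomal cadherins of basal cells and of the follicle, rose by 1.50 ± 0.10 and 1.15 ± 0.09 (adjusted p = 1.12e-06 and 2.95e-06).

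Among cysteine and aspartic proteases of the cornified layer and their inhibitors, 12 of 13 were tested, 7 rose and 1 fell (median 0.37). Cstb, the cysteine protease inhibitor cystatin B, rose by 1.21 ± 0.07 (adjusted p = 2.85e-07), and Casp14, which takes part in the breakdown of filaggrin, rose by 1.11 ± 0.07 (adjusted p = 1.13e-06). Blmh, which degrades filaggrin further, rose by 0.62 ± 0.08 (adjusted p = 8.57e-05) and Ctsl, cathepsin L, by 0.83 ± 0.11 (adjusted p = 0.000142). Lgmn, the lysosomal protease legumain, was the one that fell, by 0.48 ± 0.08 (adjusted p = 0.000500).

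Of 9 tested receptors and outputs of skin proteases, 2 were higher and 5 lower (median -0.36), beside 29.4% and 34.4% of all tested genes. Plau, the urokinase plasminogen activator, had 9.27, 9.30, 9.28 and 9.28 in CON and 8.17, 8.0, 7.88 and 8.18 in KO mice and fell by 1.23 ± 0.08 (adjusted p = 1.21e-06). F2rl3, protease-activated receptor PAR4, had a log2 change of -0.93 (adjusted p = 0.000446) and was detected on 1 KO array, so this size is approximate. Il1a and Il1b, interleukin-1 cytokines, rose by 1.17 ± 0.14 and 0.87 ± 0.10 (adjusted p = 5.81e-05 and 4.53e-05). Macrophage markers fell in 4 of 4 tested genes in the same mice (summed signal 9926 to 10372 in CON and 4723 to 5296 in KO). The receptor PAR2, through which KLK5 acts on keratinocytes, was not analysed here.

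**Figure D4:**
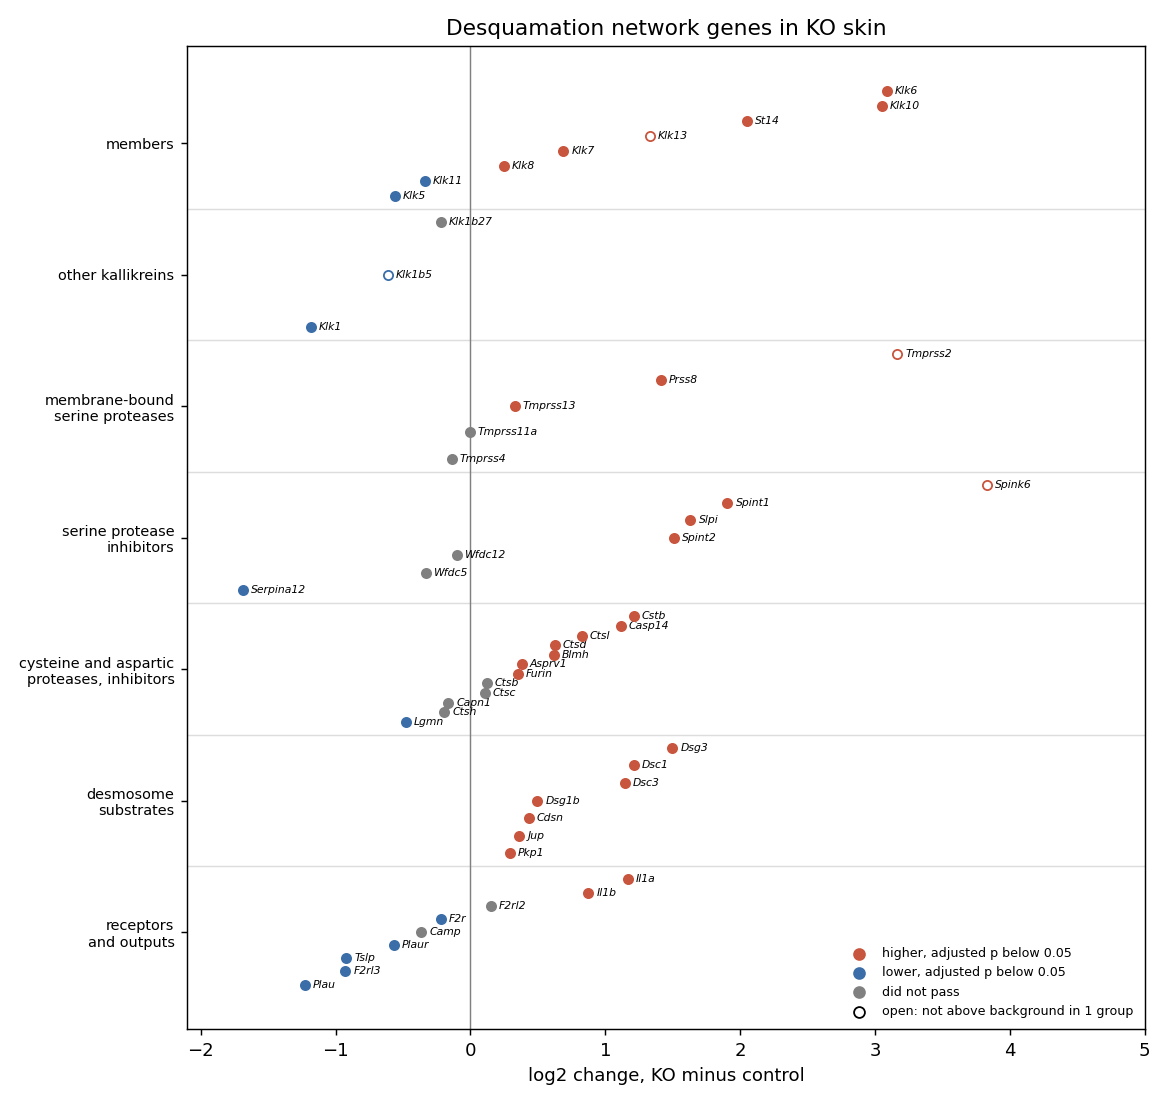
Log2 change (KO minus CON) of each tested gene at its brightest probe, n = 4 mice per group, for the member genes and 6 lists of related genes; red genes rose, blue genes fell, grey genes did not pass, and open circles were not above background on any array of 1 group. The row labelled desmosome substrates also holds other desmosome proteins. In it 7 of 7 genes were called higher, beside 29.4% of all tested genes. Serpina12 lies alone on the left among the serine protease inhibitors that passed.

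Across the 8 mice, the genes most like Klk6 at their brightest probe were Fgf22, Mfsd2a, Krtap19-1, Psors1c2 and Cib1 (Pearson r of 0.9992 to 0.9995 over 8 mice, 10349 genes compared), with log2 changes of 2.72, 2.47, 6.72, 6.15 and 0.55. Those most like Klk5 were Ankrd40, Ptx3, Stradb, Rp9 and Rcsd1 (r of 0.9979 to 0.9984), with changes of -1.09, -2.05, -1.16, -0.53 and -1.18. These correlations describe the difference between 2 genotypes: 1386 genes had r above 0.95 with Klk6 and 1435 with Klk5, so likeness to either is common on these arrays.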

How the data were processed

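For each array the authors deposited every probe's average bead intensity, linear and neither background-subtracted nor scaled, with, per the file headers, a detection p-value beside it. The submitters' processing notes name GenomeStudio 2011.1. A second deposited table of normalized intensity, with equal quantiles on all arrays and some values below 0, was used as an alternative, raised to a floor of 16 (normalization method not given in the sources used here).

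Raw signals were background-corrected from the detection p-values, quantile normalized and log2 transformed by neqc (limma 3.58.1, R 4.3.3), which adds an offset of 16 and so pulls changes of dim probes toward 0. Genotype was fitted with lmFit and eBayes over all 8 mice and all 15120 tested probes, with no covariate. The fit had first been tested on simulated log2 signals. These did not pass through the normalization and held far fewer changed probes than the real arrays. Calls used an adjusted p below 0.05. The brightest tested probe stood for a gene. Of all probes 23978 had 1 gene symbol and 1719 had none, and 23962 matched the RefSeq table of GRCm38.p6. Each array held 1 mouse, so the number of mice limits the precision. Markers were summed over brightest probes, as linear signal less the offset.

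The members and gene lists were chosen with earlier results of these data known. Named genes are all members, from each list the 4 or fewer of smallest adjusted p plus those called against the majority, and the 5 genes most correlated with the members that rose and fell most. Planned comparisons of Klk5, Klk7 and Klk14 with Spink5 were not made, because Spink5 was not analysed here.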

Additional observations from a re-analysis of the deposited data

How the results depend on the processing

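Over 19 alternatives (the p below 0.005 given further on is not among them), Klk5, Klk6, Klk7, Klk10, Klk11 and St14 kept their direction and their call in 19 each and Klk13 in the 15 that tested it, and Klk8 kept its direction in 19 and its call in 13. The change of Klk6 ranged from 2.39 to 3.23, that of Klk10 from 2.47 to 3.16 and that of St14 from 1.69 to 2.11 on the log2 scale, lowest for all of them without background correction, where the change of Klk13 was 0.42. The members' median of 1.01 became 0.550 without background correction, 1.26 with the deposited normalized values and 0.689 without the detection filter, which brought in Klk14. Leaving out 1 mouse at a time gave medians from 0.682 to 1.04, with Klk13 untested whenever a KO mouse was left out, 4 to 6 genes higher and 2 lower. Over the same runs 8794 to 8986 probes were called, against 9473 with all mice. The labels do not say whether same-numbered mice are linked. Their deviations correlated at -0.107, 0.0104, 0.0587 and -0.0879, and 1 of 4 CON mice correlated best with its own number. These values cannot show whether such mice shared a litter. With the replicate number as a block, 5 member genes were higher and 2 lower, the median was 1.01, 9192 probes were called, and Klk8 did not pass (adjusted p = 0.0648). The methods' t-test called 6 members higher and 2 lower both at an unadjusted p below 0.05, their general threshold, and after Benjamini-Hochberg, with 9636 and 9002 probes called. At an unadjusted p below 0.005, which they name for array data passed to pathway software and which was added after seeing the data, it called 5 higher, 1 lower and 6977 probes, without Klk8 and Klk11. The offset and the background limit what can be said of dim genes such as Klk13 and Klk14.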
